A study of Mus musculus with 6 samples.

Results

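The 10 genes described here encode enzymes that hydroxylate or crosslink collagen. They are the lysyl oxidases Lox, Loxl1, Loxl2, Loxl3 and Loxl4, the lysyl hydroxylases Plod1, Plod2 and Plod3, the prolyl hydroxylase subunit P4ha3, and the transglutaminase Tgm2. They were taken by gene symbol from a table of 54532 genes, in which 10 of 10 were found, and 10 of 10 passed the filter on low counts that left 14406 genes for testing. RNA was sequenced from hearts at day 14 after myocardial infarction. The ACKR4_KO group had 3 heart libraries of mice without Ackr4, an atypical chemokine receptor, and the WT group had 3 heart libraries of wild-type mice. All mice were C57BL/6 of 8 to 10 weeks, and all hearts were infarcted, so no uninjured heart serves as a baseline. The labels give neither the region of the heart taken, nor the cells that lack the receptor, nor whether libraries came from 1 animal or a pool. Below, a heart stands for 1 library, so spread between hearts is spread between libraries.

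Fibrillar collagen is hydroxylated inside the cell and crosslinked outside it. In the endoplasmic reticulum, prolyl 4-hydroxylases stabilise the triple helix and lysyl hydroxylases modify the lysines that later form crosslinks. After secretion and trimming, lysyl oxidases oxidise lysines and hydroxylysines in collagen and elastin to aldehydes that join neighbouring molecules, while transglutaminases join glutamine to lysine side chains. In the infarct scar these steps are known for giving the matrix its tensile strength.

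The 6 libraries held 9422462 to 13910358 counted reads each. Levels are given as CPM, counts scaled to a common library size after TMM normalization. Ackr4 had 4, 1 and 12 reads in ACKR4_KO replicates 1, 2 and 3 and 165, 151 and 169 reads in the WT libraries, which fits the labels. Heart muscle markers were abundant in every library, with 8 cardiomyocyte genes summing to between 37167 and 52717 CPM in ACKR4_KO and between 29447 and 37469 CPM in WT. The sum of 9 fibroblast markers was 3335 to 6135 CPM in ACKR4_KO and 6469 to 7014 CPM in WT. Macrophage markers (8 genes) summed to 1133 to 1700 CPM in ACKR4_KO and 1444 to 1844 CPM in WT, and endothelial markers (7 genes) to 1414 to 1834 CPM in ACKR4_KO and 1817 to 2016 CPM in WT. Of 7 lung epithelial genes, 4 had 0 reads in all ACKR4_KO libraries, and their sum was 0.323 to 1.83 CPM in ACKR4_KO and 38.7 to 236 CPM in WT. Fast skeletal muscle genes (7) summed to 2.58 to 9.53 CPM in ACKR4_KO and 4.12 to 116 CPM in WT.

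Per kilobase of exon, Loxl1 was the most abundant of the 10 transcripts by group mean. In ACKR4_KO replicate 2 alone Tgm2 stood above it, at 298 CPM against 113 CPM before scaling by length. The level of Loxl1 per length was 88.2 ± 50.4 CPM per kb in ACKR4_KO and 117 ± 7.21 CPM per kb in WT (mean ± SD, n = 3 each, as throughout). Tgm2 followed at 68.1 ± 9.27 CPM per kb in ACKR4_KO and 53.7 ± 2.17 CPM per kb in WT, then Lox at 36.3 ± 30.0 and 35.1 ± 4.40 CPM per kb, and Plod1 at 26.9 ± 8.20 and 24.2 ± 1.64 CPM per kb. Loxl2, Loxl3 and Plod3 had means with overlapping SDs. These were 14.0 ± 7.78, 10.9 ± 7.02 and 16.6 ± 7.57 CPM per kb in ACKR4_KO and 15.4 ± 1.36, 14.8 ± 2.06 and 14.8 ± 1.16 CPM per kb in WT. Plod2 was at 10.7 ± 5.67 CPM per kb in ACKR4_KO and 9.74 ± 0.470 CPM per kb in WT. P4ha3 was at 3.65 ± 3.65 and 3.55 ± 0.571 CPM per kb, and Loxl4 was the scarcest at 0.691 ± 0.286 and 0.664 ± 0.208 CPM per kb. In ACKR4_KO the order of neighbouring group means is not resolved, since the spread was wide. The spread between hearts does not decide the order of genes within a heart. Per kb of exon, Plod1 stood above Plod3 and Plod3 above Plod2 in every heart. With the longest transcript in place of all exons, Plod1 stood above Lox, at 44.4 CPM per kb in ACKR4_KO and 40.1 CPM per kb in WT, against 36.6 and 35.3 CPM per kb for Lox. Tgm2 then came close to Loxl1 in ACKR4_KO, at 87.2 and 88.2 CPM per kb. Plod3 was at 22.9 CPM per kb in ACKR4_KO and 20.35 in WT, above Loxl2 (14.2 and 15.7) and Loxl3 (12.2 and 16.6). Plod2, at 15.7 and 14.3 CPM per kb, was above these 2 genes in ACKR4_KO and below them in WT.

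The genotype comparison asked whether the enzymes differed in the infarcted heart without ACKR4. With the threshold at 0.05 on the adjusted p from edgeR, 0 of the 10 passed, as did 0% of all genes tested. Ackr4 itself did not pass, though its log2 fold change was -4.70 and its adjusted p by edgeR, 0.099, was the smallest of all genes. A gene that did not pass is therefore not shown to be unchanged. By limma-voom 0 of the 10 passed, as did 0% of all genes. By DESeq2, for which low counts were not filtered out, 0 of the 10 passed and 0.234% of the genes with an adjusted p did. In ACKR4_KO the level of 7 genes was higher and of 3 lower, beside 7485 higher and 6921 lower over all genes tested. The 7 include Lox, Loxl4 and P4ha3 at log2 fold changes of 0.05, 0.06 and 0.04, whose sign turned in 4, 3 and 4 of 15 alternative fits. The median log2 fold change was 0.05, beside 0.01 over all genes. An unadjusted p under 0.05 by edgeR was reached by Tgm2 alone of the 10, where 7.45% of all genes reached it. The groups also differed in spread: for most of the enzymes, though less for Tgm2, the 3 ACKR4_KO hearts resembled each other less than the 3 WT hearts did. A wider spread within ACKR4_KO was common, since 74.7% of all genes with a value had a larger coefficient of variation there.

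**Figure D1:**
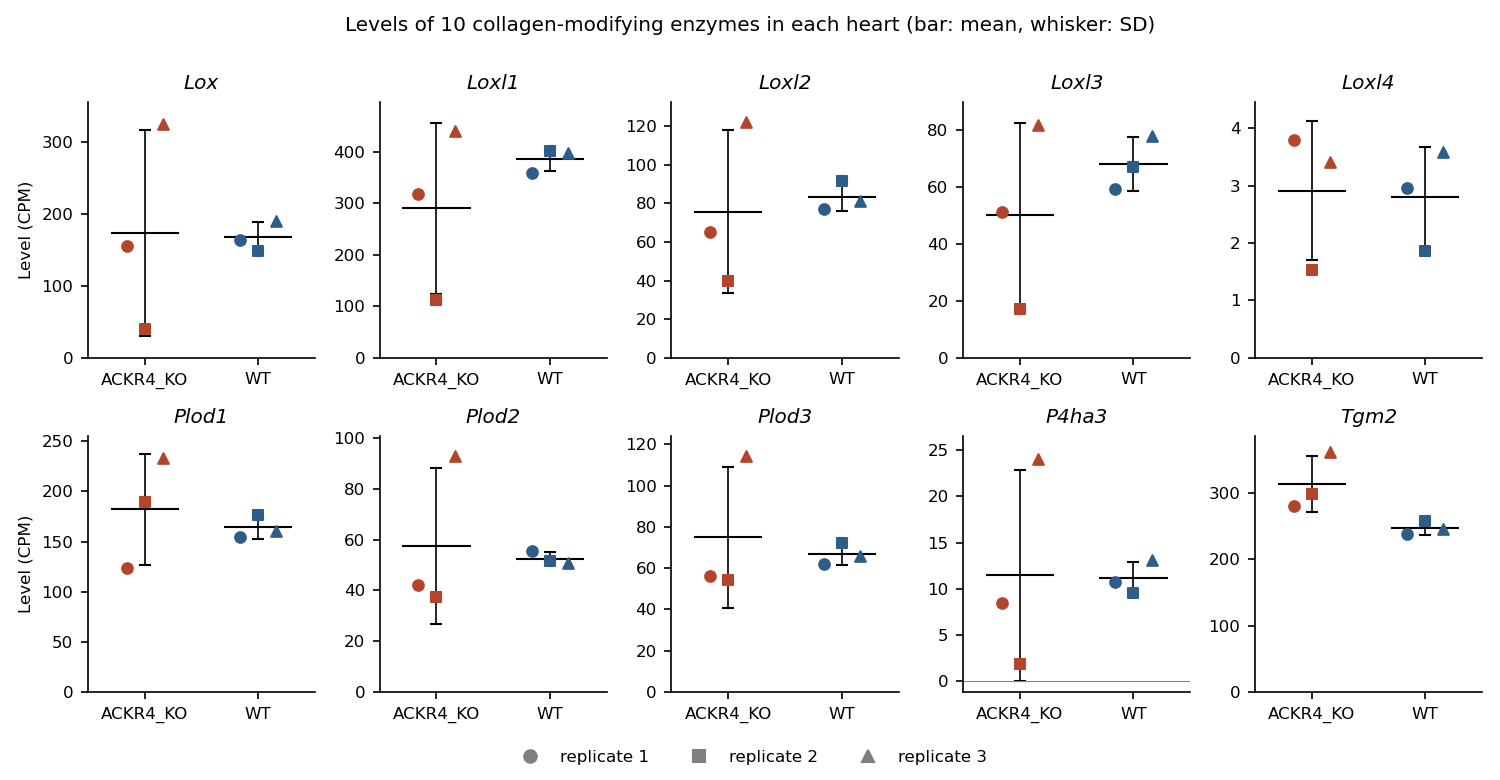
Level in CPM (vertical axis) of each of the 10 enzymes in 3 ACKR4_KO hearts (left in each panel) and 3 WT hearts (right), with the mean and SD. Lox runs from 39.8 to 325 CPM in ACKR4_KO and from 149 to 190 CPM in WT, while Tgm2 is the one gene whose ACKR4_KO points all lie above the WT points.

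Among the lysyl oxidases, Lox (ENSMUSG00000024529, chromosome 18, 52516067 to 52529867, minus strand of GRCm38), the founding member of the family, had 156, 39.8 and 325 CPM in ACKR4_KO replicates 1, 2 and 3, against 164, 149 and 190 CPM in WT. ACKR4_KO replicate 2 was far below every WT heart and replicate 3 far above, so the groups overlapped. The log2 fold change was 0.05 (SE 0.66), and its 95% interval ran from -1.57 to 1.67 (adjusted p = 0.987 by edgeR). Loxl1 (ENSMUSG00000032334, chromosome 9, 58287738 to 58313186, minus strand), which in mice maintains elastic fibres, had 319, 113 and 441 CPM in ACKR4_KO, against 359, 401 and 399 CPM in WT. Replicate 2 was again the low heart and replicate 3 the high one, with a log2 fold change of -0.41 and an interval from -1.45 to 0.63 (adjusted p = 0.828 by edgeR).

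Loxl2 (ENSMUSG00000034205, chromosome 14, 69609068 to 69695834, plus strand), an oxidase with scavenger receptor domains, had 65.3, 39.8 and 122 CPM in ACKR4_KO, against 77.2, 91.5 and 81.5 CPM in WT. Loxl3 (ENSMUSG00000000693, chromosome 6, 83034173 to 83052562, plus strand) had 51.3, 17.3 and 81.9 CPM in ACKR4_KO, against 59.1, 67.2 and 78.0 CPM in WT. For both, 2 of 3 ACKR4_KO hearts were below all WT hearts and replicate 3 was above all of them. The log2 fold changes were -0.14 for Loxl2 (interval -1.02 to 0.75) and -0.44 for Loxl3 (interval -1.65 to 0.77). Loxl4 (ENSMUSG00000025185, chromosome 19, 42593982 to 42612813, minus strand) had only 47, 15 and 39 reads in ACKR4_KO and 38, 18 and 52 reads in WT, so counting error weighs more on it than on the others. Its levels were 3.80, 1.54 and 3.40 CPM in ACKR4_KO, against 2.96, 1.85 and 3.58 CPM in WT, and the groups overlapped.

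A single heart decided the size and often the sign of these differences. Without ACKR4_KO replicate 2 the log2 fold change was 0.52 for Lox, -0.02 for Loxl1, 0.17 for Loxl2 and -0.03 for Loxl3. Without ACKR4_KO replicate 3 it was -0.77 for Lox, -0.83 for Loxl1, -0.66 for Loxl2 and -0.98 for Loxl3, with adjusted p by edgeR between 0.300 and 0.654. The unadjusted p of Loxl2 was then 0.0117. Without WT replicate 2 it was -0.03 for Lox. For Loxl4 the log2 fold change was -0.18 without ACKR4_KO replicate 1, -0.06 without ACKR4_KO replicate 3 and -0.16 without WT replicate 2, against 0.06 with all hearts. In bulk tissue a smaller number of cells that make an enzyme and less of its RNA per cell cannot be told apart.

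The lysyl hydroxylases divided in their pattern. Plod2 (ENSMUSG00000032374, chromosome 9, 92542223 to 92608428, plus strand), the enzyme of lysines in the collagen telopeptides, had 42.3, 37.6 and 92.8 CPM in ACKR4_KO, against 55.4, 51.5 and 50.6 CPM in WT. Plod3 (ENSMUSG00000004846, chromosome 5, 136987019 to 136996648, plus strand), which also adds sugars to hydroxylysine, had 56.1, 54.4 and 114 CPM in ACKR4_KO, against 61.9, 72.3 and 66.0 CPM in WT. In both genes ACKR4_KO replicates 1 and 2 were close to each other and below all WT hearts, and replicate 3 was above all of them. Plod1 (ENSMUSG00000019055, chromosome 4, 147909753 to 147936767, minus strand), the enzyme of lysines in the helix, had 123, 190 and 233 CPM in ACKR4_KO, against 155, 176 and 161 CPM in WT. Here replicate 2, the low heart of the lysyl oxidases, was above every WT heart, and replicate 1 was the lowest of all 6.

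The log2 fold changes of Plod1, Plod2 and Plod3 were 0.15, 0.13 and 0.17, with intervals from -0.34 to 0.64, from -0.65 to 0.91 and from -0.48 to 0.82. Without ACKR4_KO replicate 3 they were -0.07, -0.39 and -0.27, and for Plod2 the unadjusted p was then 0.0119 and the adjusted p 0.300 by edgeR. Without ACKR4_KO replicate 1 the log2 fold change of Plod1 was 0.37 (unadjusted p = 0.0389 and adjusted p = 0.357 by edgeR) and of Plod2 0.31, and without ACKR4_KO replicate 2 that of Plod2 was 0.36. Plod2 lies 11.5 Mb and Loxl1 45.8 Mb from Ackr4, on the same chromosome.

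P4ha3 (ENSMUSG00000051048, chromosome 7, 100285520 to 100319699, plus strand), a catalytic subunit of collagen prolyl 4-hydroxylase, spanned the widest range. It had 8.40, 1.84 and 24.1 CPM in ACKR4_KO, against 10.7, 9.57 and 13.1 CPM in WT. ACKR4_KO replicate 2 had only 18 reads of it, so counting error weighs on its lowest value. Between the ACKR4_KO hearts it differed 13.1-fold from lowest to highest, and between the WT hearts 1.37-fold. The log2 fold change was 0.04 with an interval from -1.77 to 1.86, and it was -1.08 without ACKR4_KO replicate 3, 0.54 without ACKR4_KO replicate 2, 0.23 without ACKR4_KO replicate 1 and -0.05 without WT replicate 2.

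P4ha3 and Plod1 were alike in ACKR4_KO replicate 1, at 0.755 and 0.751 of the WT mean, and were both highest in replicate 3, but stood at 0.166 and 1.16 of it in replicate 2. The 250 bases before their start sites are shown for that difference in 1 heart, from RefSeq on GRCm38.p6. A sequence was matched for 4 of the 10 genes (Loxl4, P4ha3, Plod1 and Plod3). P4ha3 is shown at chr7:100285270-100285519 on the plus strand and Plod1 at chr4:147936777-147937026 on the minus strand, both in the direction of transcription. Capitals mark matches, on either strand, to 5 motifs searched. The TATA box was searched as TATAAA and the GC box as GGGCGG. The core of the hypoxia response element was searched as ACGTG, the site of the AP-1 factors as TGACTCA, and the short SMAD site as CAGAC.
P4ha3: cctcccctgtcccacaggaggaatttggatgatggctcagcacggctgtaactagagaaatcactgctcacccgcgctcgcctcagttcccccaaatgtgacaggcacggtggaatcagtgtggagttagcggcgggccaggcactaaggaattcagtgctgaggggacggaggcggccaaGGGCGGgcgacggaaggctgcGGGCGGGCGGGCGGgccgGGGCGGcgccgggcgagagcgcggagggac
Plod1: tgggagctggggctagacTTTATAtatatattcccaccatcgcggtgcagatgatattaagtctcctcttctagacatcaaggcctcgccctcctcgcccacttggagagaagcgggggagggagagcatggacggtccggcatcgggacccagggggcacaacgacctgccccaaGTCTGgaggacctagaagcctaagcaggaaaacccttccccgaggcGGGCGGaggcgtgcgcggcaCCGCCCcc

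The P4ha3 window holds 5 matches, all GC boxes, of which 3 overlap one another. The Plod1 window holds 4, with 1 TATA box match, 2 GC boxes and 1 SMAD site. Of these, the TATA box match at position -232, the SMAD site at -74 and the GC box at -8 read on the opposite strand. Over 32851 promoters of the same length, 32.7% hold a GC box, 12.4% the TATA box, 42.2% the SMAD site, 16.6% the hypoxia core and 4.46% the AP-1 motif. GC content is 67.2% in the P4ha3 window and 61.6% in that of Plod1. These letters describe the windows, and no binding was measured.

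Tgm2 (ENSMUSG00000037820, chromosome 2, 158116402 to 158146436, minus strand), the transglutaminase found in many cell types, had 281, 298 and 362 CPM in ACKR4_KO, against 238, 258 and 246 CPM in WT. All 3 ACKR4_KO hearts were above all 3 WT hearts, the only gene of the 10 whose groups did not overlap, where 14.2% of all genes tested did not overlap and 6.53% lay above in this way. The means were 314 ± 42.7 CPM in ACKR4_KO and 247 ± 9.99 CPM in WT, a log2 fold change of 0.34 (SE 0.14, interval 0.02 to 0.67). The unadjusted p was 0.0406 and the adjusted p 0.664 by edgeR, so the difference was not called. In 15 alternative fits the log2 fold change of Tgm2 stayed between 0.23 and 0.42 and the adjusted p between 0.309 and 0.999. The lowest of these, 0.23, was without ACKR4_KO replicate 3, where the unadjusted p was 0.0792. Without 1 of the WT replicates the unadjusted p was 0.0763 to 0.133 by edgeR.

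All 8 cardiomyocyte markers were higher in ACKR4_KO in the same comparison, at a median log2 fold change of 0.42, and 9 of 9 fibroblast markers were lower, with a median of -0.40. Endothelial markers, of a cell type that makes much Tgm2, were lower in 7 of 7, with a median of -0.24, and macrophage markers in 8 of 8, with a median of -0.16. The part of these markers in the Tgm2 values was not tested. On the opposite strand Rprd1b shares 370 exonic bases with Tgm2 and was at 34.8 ± 5.13 CPM in ACKR4_KO and 33.7 ± 1.76 CPM in WT. Gm20412, also on the opposite strand, shares 633 exonic bases with Tgm2 and had 0 reads in every library. No source used here says whether the counting used strand, so reads from the shared stretches cannot be assigned. Htra2 likewise shares 535 bases with Loxl3 and Znhit1 529 bases with Plod3, at 24.0 and 37.6 CPM in ACKR4_KO and 22.2 and 30.9 CPM in WT. Gm38391 shares 346 bases with Plod2, at 1.31 CPM in ACKR4_KO and 1.58 CPM in WT. Gm27177 shares 301 bases with Loxl2, at 0.029 CPM in ACKR4_KO and 0.072 CPM in WT.

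Among 12848 genes with a mean of at least 2 CPM, the 5 whose centred log2 CPM over the 6 hearts lay closest to that of Tgm2 were Dmwd, Pradc1, Pim1, Pfdn2 and 0610009B22Rik, with root mean square differences between 0.03 and 0.04 on the log2 scale. Dmwd had 69.5, 76.9 and 93.8 CPM in ACKR4_KO, against 60.4, 68.9 and 62.2 CPM in WT. Pim1, a kinase, had 24.96, 27.3 and 33.0 CPM in ACKR4_KO, against 22.4, 24.5 and 21.5 CPM in WT.

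The order of the hearts was shared by most of the enzymes. In 7 of the 10 genes ACKR4_KO replicate 2 was the lowest of all 6 hearts and ACKR4_KO replicate 3 the highest, which held for 8.02% of all genes tested. This pattern was looked for after the values were seen. The exceptions were Loxl4, with its maximum in ACKR4_KO replicate 1, Plod1, with its minimum there, and Tgm2, with its minimum in WT replicate 1. The coefficient of variation was larger within ACKR4_KO than within WT in 10 of the 10 genes, against 74.7% of all genes with a value. It had a median of 54.4% in ACKR4_KO and 8.32% in WT over the 10 genes, beside 18.3% and 10.3% over all genes. P4ha3 reached 99.9% within ACKR4_KO, a value exceeded by 1.28% of genes, and Lox 82.6%, exceeded by 2.40%. Tgm2, at 13.6%, was below most genes, since 65.1% had a larger value.

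Most of the fibrillar collagen chains tested shared this order, so it was not particular to the enzymes. Col1a1, Col1a2, Col5a1, Col5a2, Col11a1 and Col11a2 were lowest of all hearts in ACKR4_KO replicate 2 and highest in ACKR4_KO replicate 3. Col3a1 was lowest in ACKR4_KO replicate 2 but not highest in ACKR4_KO replicate 3, and Col5a3 was neither. Col1a1, the first chain of type I collagen, had 1425, 472 and 2870.0 CPM in ACKR4_KO, against 1549, 1836 and 1563 CPM in WT. In ACKR4_KO replicate 2 the level was 0.286 of the WT mean for Col1a1, 0.312 for Col3a1, 0.291 for Loxl1, 0.254 for Loxl3, 0.237 for Lox and 0.166 for P4ha3. In the same heart it was 0.477 for Loxl2, 0.716 for Plod2, 0.815 for Plod3, 1.16 for Plod1 and 1.21 for Tgm2. ACKR4_KO replicate 2 also had the highest sum of cardiomyocyte markers, 52717 CPM, the highest mitochondrially encoded share of the counts, 21.4%, and the library scaling factor farthest from 1, 0.891. The sum of fibroblast markers was 4813 CPM in that heart and 3335 CPM in ACKR4_KO replicate 3, but the order depended on the marker. Of the 9 markers, 6 were lowest of all hearts in ACKR4_KO replicate 2 and 3 in ACKR4_KO replicate 3, where 3 others were highest of all. The sum was carried by Gsn, at 2782, 2784 and 911 CPM in ACKR4_KO, against 3024, 3229 and 3307 CPM in WT. The part of these differences between hearts in the enzyme values was not tested.

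**Figure D2:**
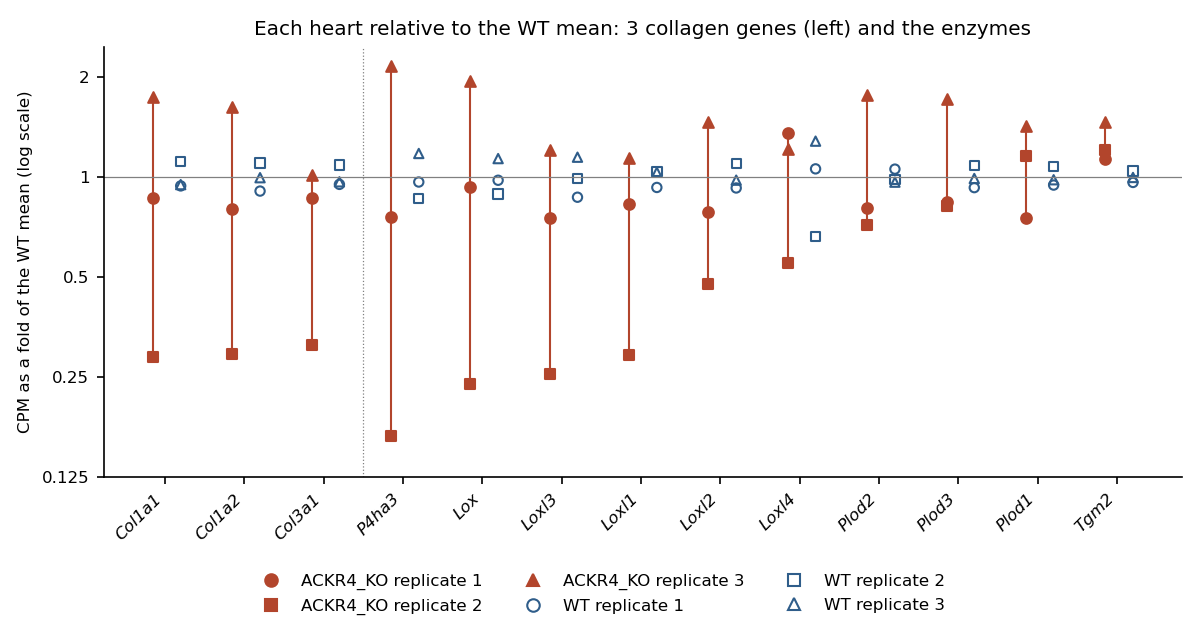
CPM of each heart as a fold of the WT mean (vertical log axis) for 3 collagen genes, left of the dotted line, and the 10 enzymes; filled symbols are ACKR4_KO hearts, joined by a line, and open symbols WT hearts. ACKR4_KO replicate 2 lies at 0.166 for P4ha3 and 0.237 for Lox, near the 0.286 of Col1a1, and above 1 for Plod1 and Tgm2.

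Set against the collagen RNA of the same heart, the enzymes differed in how steady they were. Both sides are RNA levels, and no collagen protein was measured here. The measure is the enzyme's CPM per 1000 CPM of Col1a1, Col1a2 and Col3a1 together, given without a test. That collagen sum was 6382, 2272 and 10010.0 CPM in ACKR4_KO, against 7060.0, 8259 and 7311 CPM in WT, a range of 4.41-fold within ACKR4_KO. Loxl1 itself ranged 3.92-fold within ACKR4_KO, close to the collagen sum, so its ratio to collagen varied little. The ratio was 50.0, 49.6 and 44.0 per 1000 in ACKR4_KO, against 50.8, 48.6 and 54.6 per 1000 in WT. The ratio of Loxl3 was steady within ACKR4_KO as well, at 8.04, 7.62 and 8.18 per 1000, against 8.38, 8.13 and 10.7 per 1000 in WT. Lox spread more, at 24.4, 17.5 and 32.4 per 1000 in ACKR4_KO, against 23.2, 18.0 and 26.02 per 1000 in WT. Loxl2 was highest in ACKR4_KO replicate 2, at 10.2, 17.5 and 12.2 per 1000 in ACKR4_KO, against 10.9, 11.1 and 11.1 per 1000 in WT. Loxl4, with few reads, had 0.59, 0.68 and 0.34 per 1000 in ACKR4_KO, against 0.42, 0.22 and 0.49 per 1000 in WT.

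Plod1 and Tgm2 behaved otherwise. Plod1 stood at 19.3, 83.4 and 23.3 per 1000 in ACKR4_KO, against 22.0, 21.4 and 22.0 per 1000 in WT. Only the heart low in collagen RNA was far from the rest. Tgm2 stood at 44.0, 131 and 36.1 per 1000 in ACKR4_KO, against 33.7, 31.2 and 33.7 per 1000 in WT. Plod2 and Plod3 were also highest per collagen in ACKR4_KO replicate 2, at 16.6 and 24.0 per 1000, against WT means of 7.003 and 8.85 per 1000. The collagen sum of that heart is the denominator, so any gene with a steady CPM is high per collagen there. Without ACKR4_KO replicate 2 the ratio of the group means was 0.979 for Plod1 and 1.22 for Tgm2, against 1.93 and 2.14 with it. Values of 2 further genes, picked after they were seen, are given for comparison. Serpinh1, the collagen chaperone HSP47, stood at 67.9, 253 and 70.8 per 1000 in ACKR4_KO, against 71.8, 74.8 and 73.9 per 1000 in WT. P4ha1, the common catalytic subunit of prolyl 4-hydroxylase, stood at 11.8, 59.2 and 9.56 per 1000 in ACKR4_KO, against 11.4, 11.5 and 12.1 per 1000 in WT, a different shape from its relative P4ha3, at 1.32, 0.812 and 2.41 per 1000 in ACKR4_KO, against 1.52, 1.16 and 1.79 per 1000 in WT.

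**Figure D3:**
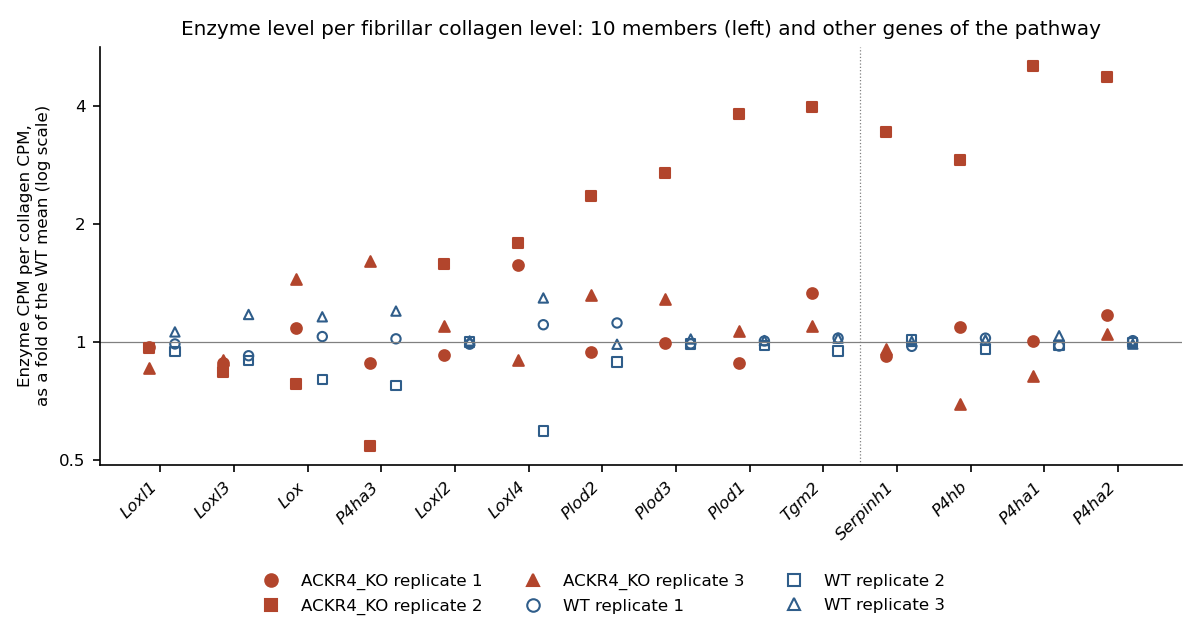
Enzyme CPM divided by the summed CPM of Col1a1, Col1a2 and Col3a1 in the same heart, as a fold of the WT mean (vertical log axis), for the 10 enzymes and 4 other genes right of the dotted line. Loxl1 and Loxl3 stay near 1 in all 6 hearts, while ACKR4_KO replicate 2 (filled square) is far above 1 for Plod1, Tgm2, Serpinh1, P4hb, P4ha1 and P4ha2. It is less far above 1 for Plod2, Plod3, Loxl2 and Loxl4. Bmp1, Pcolce and Sparc, not drawn, had 27.2, 38.65 and 526 per 1000 CPM of collagen in that heart. Their WT means were 17.5, 20.7 and 343 per 1000.

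Within the families the make-up was similar in both genotypes. Of the summed CPM per kb of the 5 lysyl oxidases, Loxl1 made up 60.5% ± 4.67 in ACKR4_KO and 64.0% ± 1.72 in WT, and Lox 21.6% ± 6.29 and 19.1% ± 2.01. The Lox share was 21.2%, 15.4% and 28.0% in the ACKR4_KO hearts, against 20.03%, 16.9% and 20.6% in the WT hearts. Loxl2 took 13.6% in ACKR4_KO replicate 2, the highest of all hearts, against 7.78% to 9.16% in WT. The Loxl3 share was 7.26%, 6.97% and 7.32% in ACKR4_KO, against 7.51%, 7.90% and 8.75% in WT, with no overlap, and no test was made of it. Among the lysyl hydroxylases, Plod1 took 47.3%, 59.6% and 44.8% in ACKR4_KO, against 48.9%, 50.5% and 49.8% in WT. Plod2 took 20.4%, 14.8% and 22.3% in ACKR4_KO, against 21.9%, 18.5% and 19.7% in WT, so replicate 2 had the least Plod2 and the most Plod1 relative to the family.

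**Figure D4:**
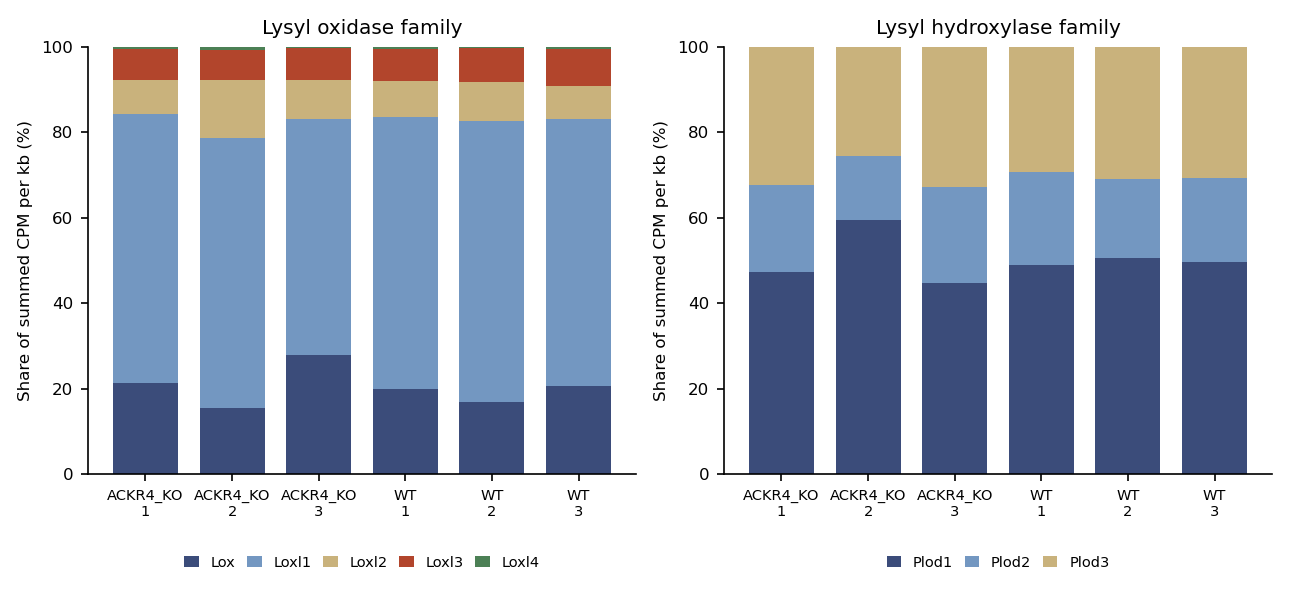
Share of each gene in the summed CPM per kb (vertical axis, percent) of the lysyl oxidase family (left) and the lysyl hydroxylase family (right), in 3 ACKR4_KO and 3 WT hearts. Loxl1 is the largest lysyl oxidase part in every heart, and ACKR4_KO replicate 2 has the smallest Lox share (15.4%) and the largest Plod1 share (59.6%).

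The remaining steps of collagen synthesis were read from lists of genes. By edgeR 0 members of any list passed the adjusted p of 0.05. Of 11 other hydroxylases, their partners and glycosyltransferases, 4 were higher and 7 lower in ACKR4_KO, at a median log2 fold change of -0.13, beside 0.01 over all genes. In P3h2 and P4hb all ACKR4_KO hearts lay below all WT hearts, where 7.63% of all genes did. P3h2, a prolyl 3-hydroxylase, had 11.6, 6.56 and 8.90 CPM in ACKR4_KO, against 12.4, 13.1 and 14.0 CPM in WT, at a log2 fold change of -0.54 (adjusted p = 0.661 by edgeR). It was the 1 gene of this list lower at an unadjusted p under 0.05, as were 3.64% of all genes. P4ha2, a catalytic subunit of prolyl 4-hydroxylase, was at 50.1 ± 9.59 CPM in ACKR4_KO and 39.4 ± 3.29 CPM in WT, a log2 fold change of 0.35, and Colgalt2 and P3h3 had -0.27 and -0.41. P4hb, protein disulfide isomerase, was at 353 ± 10.6 CPM in ACKR4_KO and 387 ± 18.6 CPM in WT.

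Of 8 chaperones and secretion factors tested, 4 were higher and 4 lower, at a median log2 fold change of 0.003, and it was -0.18 without ACKR4_KO replicate 3. Creb3l1, a transcription factor of collagen-secreting cells, had 15.7, 14.3 and 13.2 CPM in ACKR4_KO, against 16.8, 23.1 and 20.4 CPM in WT. All its ACKR4_KO values were below all WT values, as in 7.63% of all genes tested, at a log2 fold change of -0.48 (SE 0.16, adjusted p = 0.661 by edgeR). Serpinh1, Sec23a and Fkbp14 had log2 fold changes of 0.04, 0.11 and -0.10.

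Of 7 procollagen-processing genes tested, 2 were higher and 5 lower, at a median log2 fold change of -0.09, and it was -0.54 without ACKR4_KO replicate 3 and 0.18 without ACKR4_KO replicate 2. Pcolce2, which enhances the removal of the procollagen C-propeptide, had 46.4, 31.7 and 38.1 CPM in ACKR4_KO, against 56.9, 68.7 and 68.2 CPM in WT. Every ACKR4_KO heart was below every WT heart, as in 7.63% of all genes tested, at a log2 fold change of -0.74 (SE 0.16). The unadjusted p was 0.0015 and the adjusted p 0.606 by edgeR. Adamts2, the N-propeptidase, Adamts3 and Tll1 had log2 fold changes of -0.53, 0.51 and -0.54, with overlapping groups.

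Of 8 fibrillar collagen chains tested, 2 were higher and 6 lower, at a median log2 fold change of -0.12, and it was -0.78 without ACKR4_KO replicate 3 and 0.29 without ACKR4_KO replicate 2. Col5a3 was at 71.2 ± 12.7 CPM in ACKR4_KO and 93.1 ± 14.2 CPM in WT (log2 fold change -0.38, adjusted p = 0.666 by edgeR), and Col3a1, Col11a2 and Col5a2 had -0.45, 0.37 and -0.25. Of 9 other transglutaminases, 2 passed the filter on low counts. F13a1, the A chain of coagulation factor XIII, had 122, 98.1 and 51.1 CPM in ACKR4_KO, against 59.7, 64.6 and 65.4 CPM in WT, so that ACKR4_KO replicates 1 and 2 were above and replicate 3 below all WT hearts. Its log2 fold change was 0.51 (adjusted p = 0.693 by edgeR), and that of Tgm1, at 1.00 ± 0.111 CPM in ACKR4_KO and 0.777 ± 0.397 CPM in WT, was 0.41.

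**Figure D5:**
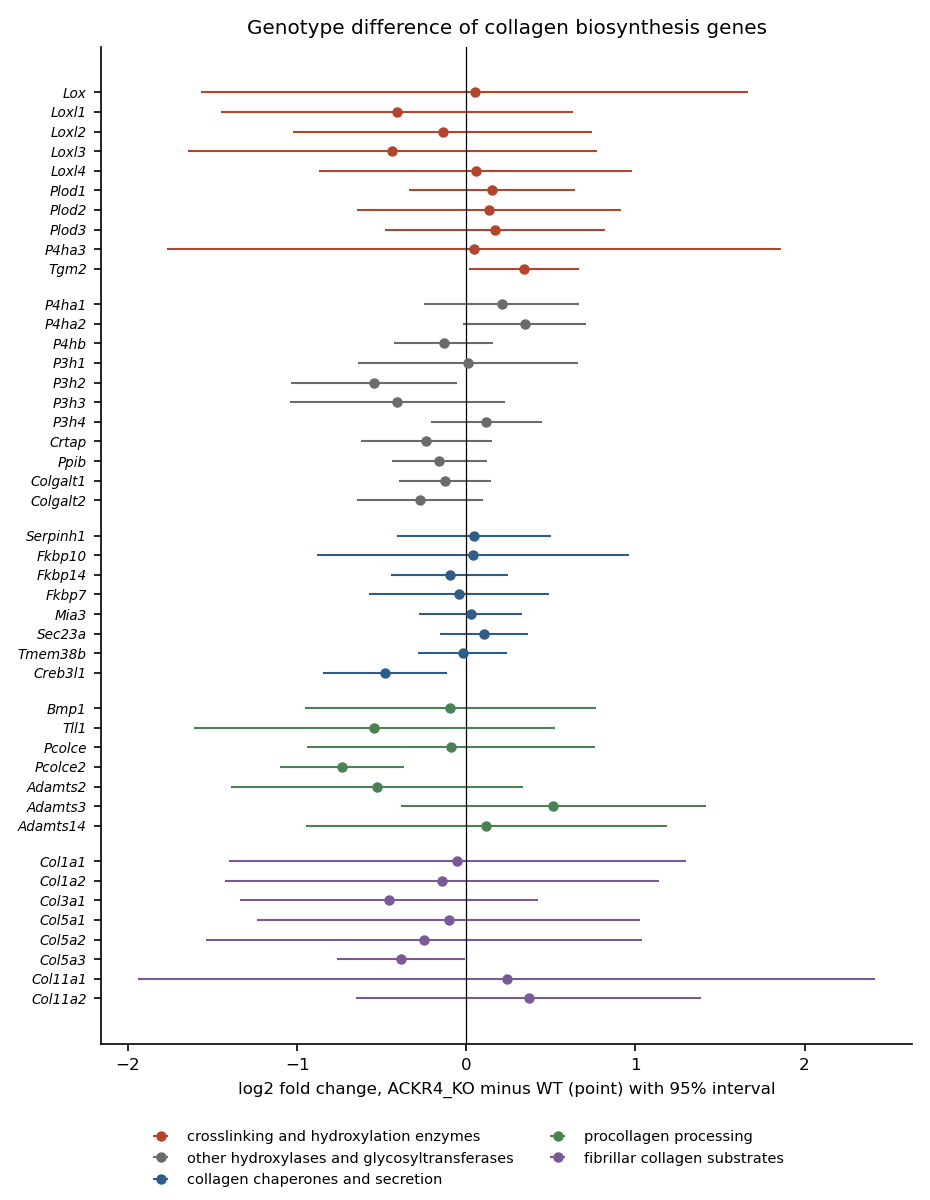
The log2 fold change of ACKR4_KO minus WT with its 95% interval (horizontal axis) for the 10 enzymes and the other collagen synthesis genes tested, one row a gene. P4ha3 and Lox have intervals from -1.77 to 1.86 and from -1.57 to 1.67, Tgm2 has one from 0.02 to 0.67, and no gene drawn passed the adjusted p of 0.05 by edgeR.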

How the data were processed

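The values the authors deposited are raw counts of reads per gene and library. CASAVA 1.8.2, HISAT2, HTSeq 0.6.0 and the build mm10 are named in the submitters' processing notes. No source used here gives the annotation release or the strand setting. Groups came from the sample descriptions. Symbols, coordinates and exonic lengths came from GENCODE M21 on GRCm38, the assembly of mm10. Genes were filtered with filterByExpr of edgeR 4.0.16 (minimum count 10, total 15) and scaled by TMM. Groups were compared by a robust quasi-likelihood test in edgeR, two-sided and adjusted by Benjamini-Hochberg over all 14406 genes, with a threshold of 0.05. Standard errors are the fold change over the root of the test statistic, and 95% intervals use its degrees of freedom. R 4.3.3, DESeq2 1.42.0 and limma 3.58.1 were also used, and the tests were checked on simulated counts. The simulation gave both groups the same spread, unlike these data, so it does not cover the wider spread within ACKR4_KO. The fits likewise use a common spread per gene for both groups, and so do the p-values and intervals drawn from them. The labels number the libraries of a genotype but do not say that each is 1 animal, so p-values measure the spread between these samples, which may in part be technical. Each enzyme had 15 to 5792 reads per library, and counting error weighs most on Loxl4 and P4ha3. The enzymes and lists were chosen with earlier results of these data known. Named genes were the 10 enzymes, Ackr4, Col1a1, Col1a2 and Col3a1, up to 4 per list with the smallest p, and the 5 genes closest to the enzyme with the smallest p. Any other gene was picked with its values in view. The alternative fits used RLE or upper-quartile factors, DESeq2, limma-voom, no robust estimation, a replicate block, or 1 library less. Others changed the genes: no filter, at least 1 CPM in 3 libraries with a mean of at least 2 CPM, or no mitochondrially encoded and hemoglobin genes. For shares and ratios they were another gene length and another collagen sum, and Sparc as the denominator was added after the data were seen.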

Additional observations from a re-analysis of the deposited data

How the results depend on the processing

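In all 15 alternative fits 0 of the 10 enzymes passed. Over all genes 0 passed by edgeR, with 1073 at an unadjusted p under 0.05, but 24 passed by edgeR without the filter on low counts, 41 by DESeq2, also run without it, and 6 with the replicate block, and 0 to 1 with 1 library left out (1 without ACKR4_KO replicate 3). The log2 fold changes of Lox and P4ha3 turned to -0.41 and -0.54 with limma-voom and to -0.36 and -0.39 with the replicate block, and the cause was not tested. With 1 library left out the log2 fold change ranged from -0.77 to 0.52 for Lox, -0.66 to 0.17 for Loxl2, -0.18 to 0.35 for Loxl4, -0.0655 to 0.37 for Plod1, -0.39 to 0.36 for Plod2, -0.27 to 0.36 for Plod3 and -1.08 to 0.54 for P4ha3. Those of Loxl1, Loxl3 and Tgm2 kept their sign in all 15. Pairing of the hearts by replicate number was not shown: deviations from the group means correlated at 0.07, 0.05 and 0.13 for numbers 1, 2 and 3, 5 of 6 hearts correlated best with their own number, and the block left Tgm2 at 0.33 (unadjusted p = 0.0537 by edgeR). With the longest transcript as length the share of Plod1 in its family in WT was 53.6% in place of 49.7%, and the Loxl3 share was 7.97% in ACKR4_KO and 8.93% in WT. With 3 hearts a group and this spread in ACKR4_KO, the intervals of most enzymes span differences in both directions.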

Other observations

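Genes of elastic fibres and other partners of the lysyl oxidases were lower in ACKR4_KO in 8 of 11 tested and higher in 3, at a median log2 fold change of -0.26, and it was -0.03 without ACKR4_KO replicate 2 and -0.58 without ACKR4_KO replicate 3. By edgeR 0 of them passed the adjusted p of 0.05. Fmod, fibromodulin, a proteoglycan that binds collagen and lysyl oxidase, had 49.9, 21.9 and 111 CPM in ACKR4_KO, against 134, 152 and 169 CPM in WT. Its ACKR4_KO values all lay below the WT values, as in 7.63% of all genes tested. The log2 fold change was -1.31 (SE 0.54, unadjusted p = 0.0489 and adjusted p = 0.666 by edgeR). In ACKR4_KO replicate 3, where Lox and Col1a1 were the highest of all hearts, Fmod was below every WT heart. Fbln5, Fbn2 and Efemp2, which serve elastic fibre assembly, had log2 fold changes of -0.41, -0.46 and -0.29 with overlapping groups.

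Genes of the hypoxia response, a program known to include Lox, Plod2 and P4ha1, were higher in 6 and lower in 6 of 12 tested, at a median log2 fold change of 0.02 and 0 past the adjusted p of 0.05 by edgeR. Vegfa, the endothelial growth factor, had 182, 225 and 202 CPM in ACKR4_KO, against 156, 136 and 142 CPM in WT. All its ACKR4_KO values were above all WT values, as in 6.53% of all genes tested. The log2 fold change was 0.49 (SE 0.13, unadjusted p = 0.00516 and adjusted p = 0.606 by edgeR). Ndrg1 had 66.0, 80.03 and 54.1 CPM in ACKR4_KO, against 86.9, 81.3 and 80.03 CPM in WT. No ACKR4_KO heart was above any WT heart, where 7.63% of all genes tested lay below without overlap. Its log2 fold change was -0.31 (unadjusted p = 0.0723 and adjusted p = 0.682 by edgeR). Egln3 and Pfkfb3 had log2 fold changes of 0.31 and -0.20.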
